A study of Mus musculus with 109 samples.

Results

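The contacts of 2 gene-rich islands near the centromeric end of mouse chromosome 8 were compared among 6 4C-seq baits placed along the same chromosome. Their members were the HindIII sites of the deposited contact table with positions from 3000001 to 5000000 (619 sites, the Insr-Elavl1 window) or from 11000001 to 14000000 (836 sites, the Col4a1-Cul4a window) on chromosome 8 of build mm9, 1455 of the 39480 sites of chromosome 8 and of the 823352 sites in all. No member lay within 2 Mb of a bait. The intervening and following stretches, from 5 to 11 Mb and from 14 to 17 Mb, held 2945 sites and served as gene-poor flanks.

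The cells were C127, a line from a mouse mammary tumour. They were held in mitosis with nocodazole, collected at 30 min and at 1, 2, 3 and 4 h after release from the block, collected later when labelled G2, or brought to a non-dividing state (G0) by serum starvation. All groups share this line, and the counts hold no expression by which it could be checked. For each of the baits B7, B26, B44 and B53 there were 11 libraries. For B87 and B118 there were 10, none of them labelled mitosis. The 2 technical replicates labelled 2 h at each bait were summed.

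4C-seq ligates crosslinked, HindIII-cut chromatin and sequences what was joined to a chosen bait fragment. Contacts fall steeply with distance along the chromosome. Beyond that decay, gene-dense, early replicating chromatin tends to meet other chromatin of its kind (the A compartment) and gene-poor, late replicating chromatin tends to meet its own (the B compartment). In mitotic chromosomes this pattern is lost, and it is set up again as cells enter G1. The windows lie at the gene-rich end of this contrast. The Insr-Elavl1 window had 44 protein-coding genes (22 per Mb) and a GC content of 43.5%, and the Col4a1-Cul4a window had 43 (14.3 per Mb) and 48%. The flanks had 13 and 10 genes, at 40.2% and 43.0% GC, and chromosome 8 as a whole had 8.40 genes per Mb at 42.4% GC.

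The bar code sequences that the labels give for each bait, the shortest given per bait, are printed because they fix the viewpoint of every value given here. They run 5′ to 3′ on the plus strand, and the capitals mark the HindIII site at which the bait fragment was cut.
B7: tattaggacagacagAAGCTT
B26: ttgagtttgacgccAAGCTT
B44: ggtcatccctttagAAGCTT
B53: aaacatgtttggccAAGCTT
B87: gggcggagatggAAGCTT
B118: cctcatacagctggAAGCTT
On mm9 they matched chr8:7223950-7223970, chr8:26774313-26774332, chr8:44417335-44417354, chr8:52961959-52961978, chr8:87434064-87434081 and chr8:118459309-118459328. B26 is intronic to Whsc1l1, whose protein methylates histones, in a 500-kb bin with 12 genes, and B87 lies in an intron of Dnase2a, a lysosomal DNase gene, in a bin with 20 genes. B44 lies 24981 bp from Zfp42 in a bin with 4 genes, and B118 lies 227624 bp from Maf in a bin with 1 gene. B7 and B53 lie in bins without a gene, 1393474 bp from Efnb2 and 1635112 bp from Aga. The bins of B53, B7, B44, B118, B26 and B87, in that order, had GC contents of 36.2, 37.1, 40.5, 43.9, 45.0 and 49.9%.

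The 70 libraries used held 266006 to 8826711 reads, with a median of 2985117, and in each of them reads within 100 kb of a bait were most numerous at the labelled one. Fewer sites were captured in the libraries labelled 3 h (1111 to 3150 sites of chromosome 8 beyond 2 Mb of the bait) and 4 h (687 to 2987) than in those labelled 2 h (14983 to 23953). At every bait the library labelled 1 h replicate 2 and the first technical replicate labelled 2 h shared 64.9 to 96.7% of the captured sites of the smaller one on other chromosomes. Some G0 libraries shared sites with these, up to 83.6% at B118, and the window, bin and gene-body values of captured sites were also computed without these libraries. The titles mark the libraries used as biological replicates, except those labelled 2 h. They name no cultures and do not say whether baits shared them. The p-values therefore measure only the spread among libraries, which may be technical.

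Each site counted as captured in a library if it had at least 1 read. The captured sites of a window were divided by the number expected at the same distance from the bait in the same library, and the log2 of this ratio is called enrichment here. A value of 0 is the distance expectation. Of the Insr-Elavl1 sites, 168 (27.1%) were captured by no library, against 60 (7.18%) of the Col4a1-Cul4a sites and 14.6% of all sites of chromosome 8. A site can be read where at least 1 of its ends has a unique 31-base sequence on the chromosome and a DpnII site before the next HindIII site. In the Insr-Elavl1 window 93 sites (15.0%) had no such usable end, and 82.8% of these were never captured. Among the Col4a1-Cul4a sites 36 (4.31%) had none, against 8.17% on the chromosome. Of the sites with 2 usable ends, 13% were never captured in the Insr-Elavl1 window, 3.33% in the Col4a1-Cul4a window and 6.25% on the chromosome. All 6 baits captured 157 sites of the first window and 371 of the second.

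The sites captured in the most libraries of each window show what a member is: a HindIII site, in capitals, with 27 bases on either side on the plus strand of mm9.
Shcbp1 distal site, chr8:4791810-4791869: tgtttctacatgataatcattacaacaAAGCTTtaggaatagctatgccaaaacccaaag
Shcbp1 proximal site, chr8:4787658-4787717: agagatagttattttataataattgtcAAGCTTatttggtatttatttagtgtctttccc
Insr intron site, chr8:3257046-3257105: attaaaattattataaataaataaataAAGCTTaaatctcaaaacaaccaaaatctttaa
Col4a2 intron site, chr8:11383315-11383374: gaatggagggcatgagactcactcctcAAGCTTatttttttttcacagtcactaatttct
Arhgef7 exon site, chr8:11814949-11815008: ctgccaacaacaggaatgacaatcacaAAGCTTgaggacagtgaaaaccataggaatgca
Lamp1 intron site, chr8:13171697-13171756: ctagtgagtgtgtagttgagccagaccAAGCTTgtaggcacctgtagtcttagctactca
The first 3 belong to the Insr-Elavl1 window and were captured in 39, 37 and 36 of 64 libraries, and the last 3 belong to the Col4a1-Cul4a window and were captured in 37 each. The Shcbp1 sites lie between genes, 12303 and 8151 bp from that gene, which encodes an SHC-binding protein. All 6 sites have 2 usable ends. B7, the nearest bait, captured each of the first 3 in 11 of 11 libraries, while B87 captured them in 3, 2 and 4 of 10. At the Insr intron site B7 had 27 to 1732 reads per library with a median of 240, and B87 had a median of 0 and at most 85. At the Lamp1 intron site the median was 128 reads at B7 and 142 at B26, which lies farther away. No single site was captured by all libraries, so the windows were compared through sums over their sites.

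The Col4a1-Cul4a window was contacted more often than its distance predicts by B87, B26 and B118 and less often by B53, which lies in a gene desert. B7 also lies in a bin without a gene, and B118 in a bin with 1 gene. At B87 its enrichment ran from 0.11 to 1.44 with a median of 0.86, and all 10 libraries were above 0. The mean was 0.76 ± 0.38 (SD, n = 10), or 1.70 times the expected number of captured sites (adjusted p = 0.00391). At B26 it ran from -0.05 to 1.08 with a median of 0.28 and a mean of 0.41 ± 0.40 (SD, n = 11), above 0 in 10 of 11 libraries (adjusted p = 0.00391). At B118 the range was 0.07 to 0.92, the median 0.25 and the mean 0.34 ± 0.29 (SD, n = 10), above 0 in all libraries (adjusted p = 0.00391). At B53 all 11 libraries were below 0, from -1.16 to -0.09 with a median of -0.33 and a mean of -0.41 ± 0.33 (adjusted p = 0.00391). The libraries of B7 and B44 fell on both sides of 0, with means of -0.07 ± 0.29 (adjusted p = 0.674) and -0.03 ± 0.20 (adjusted p = 0.866, n = 11 each). Over sites with 2 usable ends B44 was called lower, at -0.17 and below 0 in 11 of 11 libraries (adjusted p = 0.00391). B7 was also at -0.17 there but was not called (adjusted p = 0.105). The p-values are from exact two-sided sign-flip permutation tests over libraries, adjusted over 12 tests by Benjamini-Hochberg, and 0.000977 is the smallest that 11 libraries can give. Without the libraries that share sites the means were 0.94 at B87, 0.52 at B26, 0.45 at B118 and -0.48 at B53, each still called. With the shared-site libraries left in but those labelled 3 h and 4 h taken out, they were 0.67, 0.27, 0.28 and -0.31, also called. The values of the far baits depend on the expectation and on depth: a straight line in place of the curve gave -0.17 at B87 and -0.50 at B118, thinning every library to the depth of the shallowest one of its bait gave 0.17 at B87 (adjusted p = 0.729, permutation test), and sites with 2 usable ends gave 0.17 at B118 (adjusted p = 0.105). An expectation per base pair in place of per site gave 0.21 at B26 (adjusted p = 0.207) and 0.20 at B118 (adjusted p = 0.0645, permutation tests), no longer called.

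The Insr-Elavl1 window did not stand above expectation at any bait. At B53 it ran from -1.08 to -0.27 with a median of -0.61 and a mean of -0.63 ± 0.30 (SD, n = 11), below 0 in every library, and at B7 from -0.51 to -0.03 with a median of -0.41 and a mean of -0.34 ± 0.15 (adjusted p = 0.00391 for both, exact permutation test). At B44 it ran from -0.86 to 0.21 with a median of -0.32 and a mean of -0.31 ± 0.32 (adjusted p = 0.0201, 3 of 11 libraries above 0), and this call was lost without the libraries that share sites (-0.19, adjusted p = 0.241, permutation test) and over sites with 2 usable ends (-0.17). Over sites captured at least once, the call at B7 was lost too (-0.10). The means at B26, B87 and B118 were -0.01 ± 0.42, 0.00 ± 0.51 and -0.04 ± 0.19, with libraries on both sides of 0 (adjusted p = 0.992, 0.992 and 0.674). The value at B87 depended on the setting. It was called below expectation under the straight line (-1.10, adjusted p = 0.00391) and in thinned libraries (-0.55, adjusted p = 0.0335), and above it without the libraries labelled 3 h and 4 h (0.20, adjusted p = 0.0469, permutation tests).

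**Figure D1:**
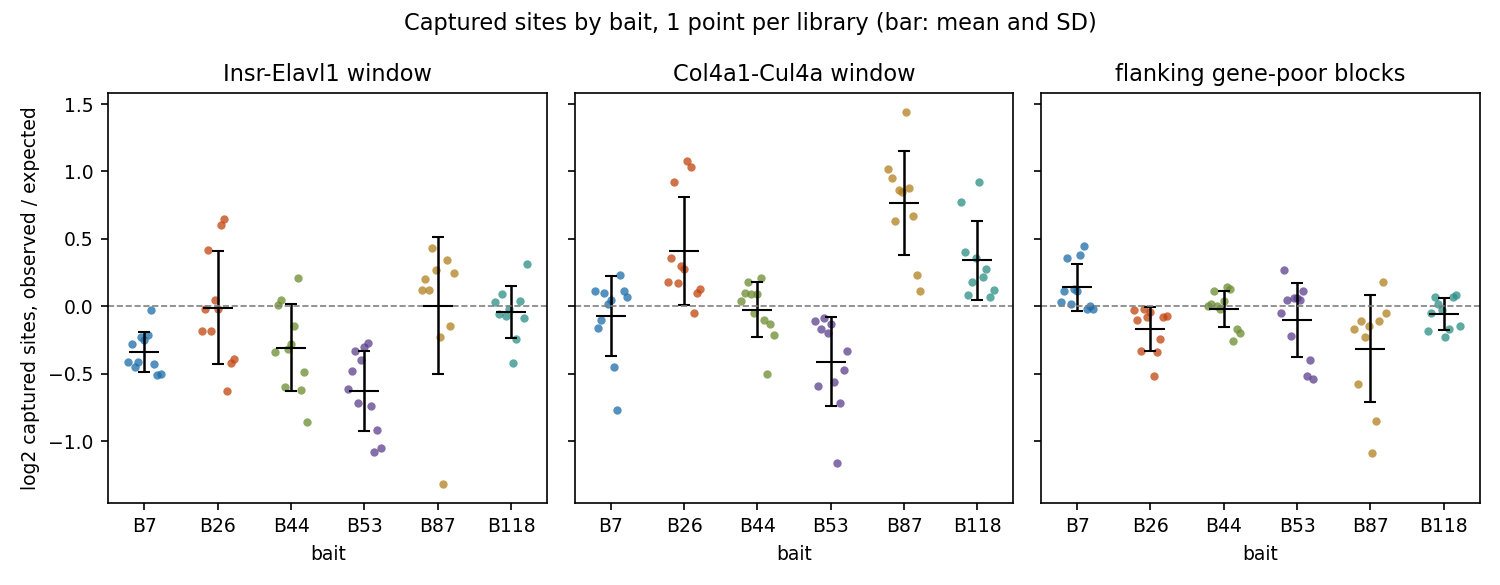
Enrichment of captured sites (log2 of observed over distance-expected) in each library of the 6 baits, for the Insr-Elavl1 window, the Col4a1-Cul4a window and the flanking gene-poor blocks. Points are libraries and bars are the mean ± SD. All 10 B87 libraries and all 10 B118 libraries lie above 0 in the Col4a1-Cul4a window, and all 11 B53 libraries lie below 0 in both windows.

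The same sites seen from different baits gave different values, in a comparison where properties of the sites are held equal. Of 15 pairs of baits, 13 differed in the Col4a1-Cul4a window and 8 in the Insr-Elavl1 window (libraries matched by stage and replicate label, adjusted over 30 tests). These 21 calls fell to 12 without the libraries that share sites and to 11 in thinned libraries. Thinned depth was equal within a bait but still differed between baits, from 687 captured sites at B87 to 2987 at B118. The widest gap was between B53 and B87 in the Col4a1-Cul4a window, where B53 minus B87 was -1.21 ± 0.55 (SD, n = 10) and negative in every library (adjusted p = 0.00586, exact sign-flip permutation test). It was -0.60 in thinned libraries and -0.31 under the straight line, neither called, and -1.41 when both were taken relative to the flanks (adjusted p = 0.00901). Without the libraries that share sites it was -1.48 (adjusted p = 0.0391, permutation test). The gene-dense B26 exceeded the desert bait B53 by 0.82 ± 0.61 in that window and by 0.62 ± 0.30 in the Insr-Elavl1 window, in 11 of 11 libraries each (adjusted p = 0.00488, permutation test). B87 exceeded B118 by 0.42 ± 0.22 in the Col4a1-Cul4a window (adjusted p = 0.00781, permutation test), but in thinned libraries the difference was -0.15. Values that were not told apart in that window were those of B26 and B118 (difference 0.09 ± 0.36, adjusted p = 0.558) and of B7 and B44 (-0.05 ± 0.41, adjusted p = 0.824). In the Insr-Elavl1 window B87 and B118 differed by 0.05 ± 0.43 (adjusted p = 0.834), which does not show that they are alike. Over sites with 2 usable ends, 11 and 6 pairs were called, all of them with the sign they had before.

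The order of the means in the Col4a1-Cul4a window, B53, B7, B44, B118, B26, B87, was also the order of the GC contents of the 500-kb bins that hold the baits. These are 6 baits, so this is a description without a test. The order did not hold in thinned libraries, where B26 minus B87 was 0.27 and B87 minus B118 was -0.15, at depths that still differed between baits. It did not hold under the straight line either, where B87 and B118 lay below B44. In read ratios B44 was lowest (-1.13), and B118 (0.53) lay above B26 (0.50). Bait position, gene density and distance vary together among the baits. For B87 and B118 no other stretch of the chromosome lies as far away as the windows, so that distance and position cannot be told apart and the adjacent flanks are the closer comparison.

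Set against the flanks in the same library, the Col4a1-Cul4a window was higher by 1.08 ± 0.73 at B87 (10 of 10 libraries, adjusted p = 0.00586), by 0.58 ± 0.55 at B26 (11 of 11, adjusted p = 0.00391) and by 0.40 ± 0.38 at B118 (9 of 10, adjusted p = 0.00937, exact permutation tests). These contrasts moved less with the expectation: under the straight line they were 1.12, 0.61 and 0.43, and in thinned libraries 0.90, 0.56 and 0.44, each still called. Per base pair, B26 (0.35) and B118 (0.16) were not called. At B87 the flanks themselves averaged -0.32 ± 0.40. At B53 the Col4a1-Cul4a window was lower than the flanks by a mean difference of -0.31 ± 0.44 (adjusted p = 0.0485), a call that was lost without the libraries labelled 3 h and 4 h (-0.17, adjusted p = 0.170) and in 9 of 11 fits that left out 1 library (adjusted p up to 0.0971, permutation test). B7 lies inside the first flank, so its flanks lack the sites within 2 Mb of it and differ from those of the other baits. The Insr-Elavl1 window differed from the flanks by -0.52 ± 0.16 at B53, -0.48 ± 0.13 at B7 and -0.29 ± 0.23 at B44, each called, the last not without the libraries that share sites (-0.23, adjusted p = 0.0670). At B87 it differed by 0.32, which was not called (adjusted p = 0.0820, permutation test), although without 4 h replicate 1 the value was 0.41 (adjusted p = 0.0335). The Insr-Elavl1 mean was below the Col4a1-Cul4a mean at all 6 baits, by -0.42 ± 0.10 at B26 and -0.76 at B87 among 4 called. Over sites with 2 usable ends the call remained at B26 (-0.20 ± 0.08) and was lost at the other 3, where the difference was 0.01 at B44, -0.55 at B87 and -0.20 at B118. Without the libraries that share sites it was called at B26 (-0.41) and B87 (-1.04, adjusted p = 0.0469 for both, permutation test).

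Read numbers gave the same contrast between B87 and B53 and different values at B44 and B7. The B87 libraries had 479 to 15869 reads with a median of 4768, and the B53 libraries had 495 to 30520 with a median of 11890 in the Col4a1-Cul4a window. Divided by the reads expected at that distance, the log2 ratio was 1.14 ± 0.47 at B87 and 0.53 ± 0.20 at B118, above 0 in 10 of 10 libraries, and -0.66 ± 0.33 at B53, below 0 in 11 of 11 (adjusted p = 0.00335 for each, exact permutation test). At B44 it was -1.13 ± 0.93, and with each library's reads per site capped at the 99th percentile, an alternative added after seeing the data, it was -0.32. Both were called (adjusted p = 0.00335, permutation test). At B7 the read ratio was -0.39 ± 0.52 and called (adjusted p = 0.0363, permutation test), where captured sites had averaged -0.07. At B87 the Insr-Elavl1 window had a log2 read ratio of 0.61 ± 0.50 (10 of 10 libraries, adjusted p = 0.00335), whereas its captured sites had averaged 0.00.

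Along the windows the enrichment differed from bin to bin. In bins of 500 kb, 17.9% of the 1469 bin-and-bait combinations of the chromosome were called higher and 25.8% lower than the distance expectation. Of the 60 combinations in the windows, 11 (18.3%) were higher and 19 (31.7%) lower, a share of higher bins near that of the chromosome. All 11 higher ones were in the Col4a1-Cul4a window, out of 36, beside 5 lower ones. In the Insr-Elavl1 window 14 of 24 were lower and 0 higher. B26 was called higher in 5 of the 6 bins of the Col4a1-Cul4a window, B87 in 3, B118 in 2 and B44 in 1. Over sites with 2 usable ends the Insr-Elavl1 window had 7 lower combinations and the Col4a1-Cul4a window had 7 higher and 9 lower, where the chromosome had 12.4% higher and 20.1% lower. Without the libraries that share sites these counts were 0 higher and 10 lower in the first window and 9 and 5 in the second, where the chromosome had 14.2% and 20.8%. Over sites captured at least once, the Insr-Elavl1 window had 2 higher and 4 lower combinations, and the Col4a1-Cul4a window had 7 higher and 11 lower. The chromosome had 205 higher and 324 lower of 1469 in that setting. Most of the lower calls in the Insr-Elavl1 window were thus lost when sites that no library captured were left out.

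The bin at 13 to 13.5 Mb, with 16 genes from Mcf2l to Gas6, had the largest bin mean of the windows at B87, 1.01 ± 0.65 (9 of 10 libraries above 0, adjusted p = 0.0130), sixth of the 245 bins of that bait. The same bin was at 0.59 ± 0.57 at B26 and at -0.74 ± 0.69 at B53. The bin at 11 to 11.5 Mb, which holds Col4a1 and Col4a2, was the second highest of 244 bins at B118, at 0.71 ± 0.36 (10 of 10 libraries). The bin at 13.5 to 14 Mb, with Rasa3 and Cdc16, was at -1.08 ± 0.89 at B53, 241st of 245. The bin at 12 to 12.5 Mb stood apart in gene number. It holds 2 genes, A230072I06Rik and Gm5607, at a GC content of 47.7%, near that of its neighbours. Its means were 0.14, 0.07, 0.21, 0.06, -0.09 and -0.17 at B7, B26, B44, B53, B87 and B118, so the baits that differed most elsewhere in the window lay close together there. This bin was singled out after its values were seen. In the Insr-Elavl1 window the bin at 4.5 to 5 Mb, with 6 genes and 40.7% GC, was low at B26 (-0.52 ± 0.18) and at B87 (-0.67 ± 0.71). In that bin 56 of 176 sites were never captured.

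**Figure D2:**
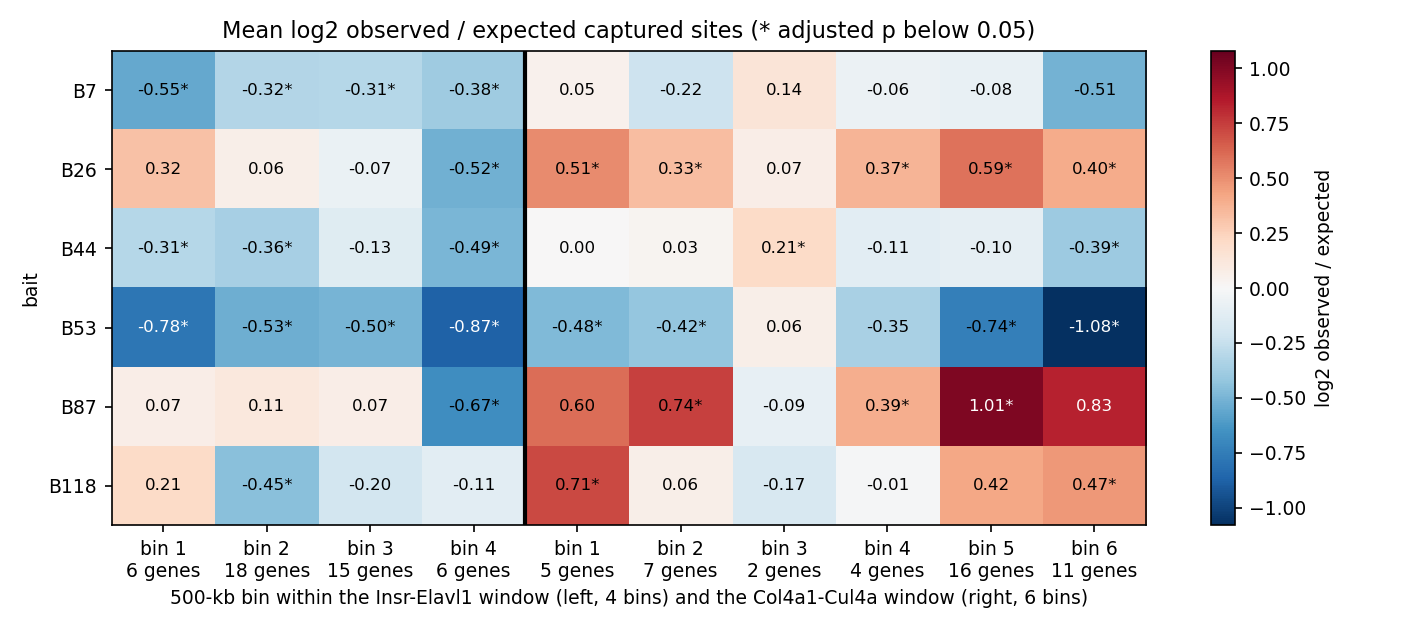
Mean enrichment of captured sites in the 4 bins of the Insr-Elavl1 window and the 6 bins of the Col4a1-Cul4a window at each bait (log2 of observed over distance-expected, each bin 500 kb), with stars on bins called at an adjusted p under 0.05. The third bin of the Col4a1-Cul4a window, with 2 genes, lies between -0.17 and 0.21 at all 6 baits, and the fifth reaches 1.01 at B87 and -0.74 at B53.

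Sites inside protein-coding genes and sites between genes were then compared, a split chosen after the bin values were seen and made over sites with 2 usable ends (149 and 236 in the Insr-Elavl1 window, 324 and 307 in the Col4a1-Cul4a window). In the Insr-Elavl1 window B26 had an enrichment of 0.51 in gene bodies and -0.28 between genes, a difference of 0.78 ± 0.54 (11 of 11 libraries, adjusted p = 0.00391, exact permutation test). B118 differed by 0.47 ± 0.48 (8 of 10, adjusted p = 0.0281), and B87 by 0.82 ± 1.30, which was not called (adjusted p = 0.103). In the Col4a1-Cul4a window B87 had 0.83 in gene bodies and 0.19 between genes, a difference of 0.64 ± 0.57 (10 of 10, adjusted p = 0.00586), and B26 differed by 0.31 ± 0.40 (11 of 11, adjusted p = 0.00391). B44 went the other way, at -0.16 ± 0.16 (0 of 11 above 0, adjusted p = 0.00391, permutation test). B7 and B53 had -0.23 ± 0.35 and -0.55 ± 0.94, not called. Without the libraries that share sites the call at B118 was lost (0.54, adjusted p = 0.105, permutation test) and the other 4 remained. On the rest of chromosome 8 the same difference was 0.32 at B26, 0.45 at B87, 0.14 at B118, -0.03 at B7, 0.04 at B44 and -0.05 at B53, so a higher value in gene bodies at B26 and B87 was not confined to the windows.

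**Figure D3:**
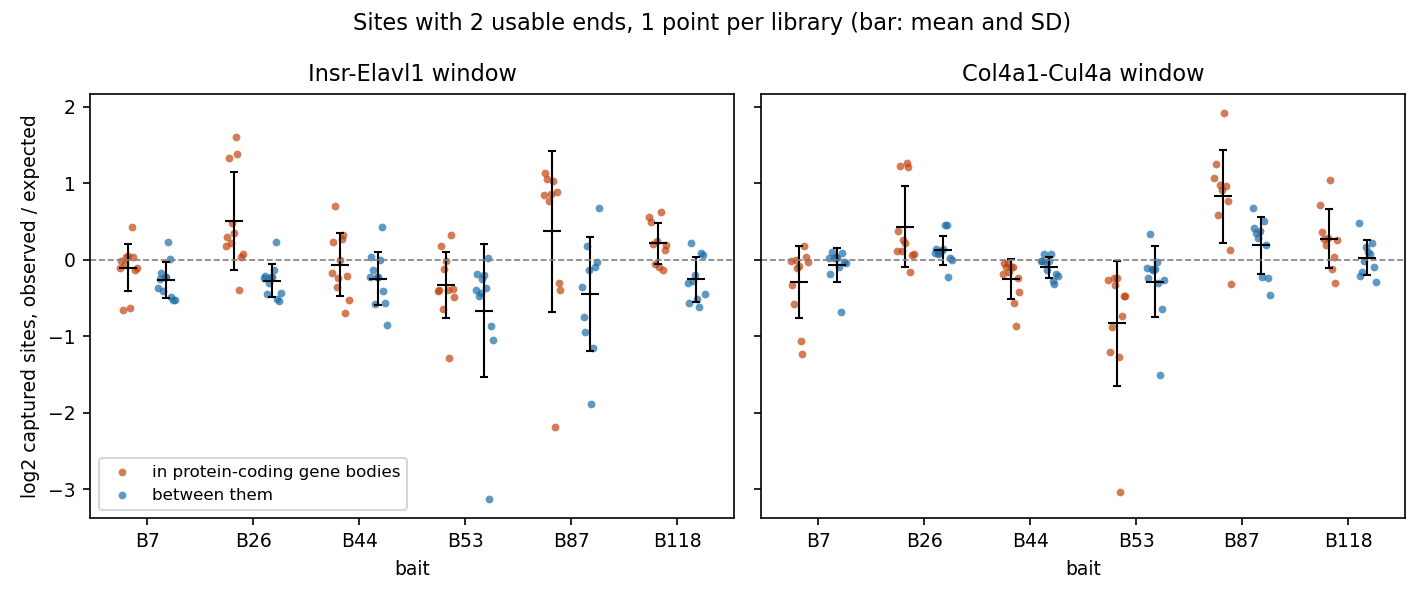
Enrichment of captured sites in gene bodies and between genes at each bait, over sites with 2 usable ends (log2 of observed over distance-expected). Points are libraries and bars the mean ± SD. Gene bodies reach 0.83 at B87 in the Col4a1-Cul4a window and 0.51 at B26 in the Insr-Elavl1 window, and lie at -0.83 at B53 in the Col4a1-Cul4a window.

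Of the genes with at least 3 HindIII sites (20 and 34), B87 gave the highest value among baits for 17 in the Insr-Elavl1 window and 28 in the Col4a1-Cul4a window, and B53 the lowest for 13 and 21. Such shares were not counted for the other genes of the chromosome with at least 3 sites. There, too, B87 had the highest median of the baits, while B7 had the lowest (-0.09). The medians over genes at B87 were 0.97 and 1.21, against 0.44 for the 555 other such genes of the chromosome, and 48 of 54 genes were above 0, against 80.5% elsewhere. At B118 the medians were 0.34 and 0.46 against 0.17. At B53 they were -0.22 and -0.30 against -0.01, with 10 of 54 genes above 0 against 48.5% elsewhere. At B26 they were 0.40 and 0.34 against 0.42, and at B7 and B44 between -0.11 and 0.04. Gene values below pool the captured sites over the libraries of a bait and have no test of their own. All gene values, the medians included, were computed only with the main expectation. They were not recomputed under the straight line or in thinned libraries, where both windows had lower values at B87. The other genes of the chromosome also lie at other distances from B87.

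Insr, the insulin receptor gene (ENSMUSG00000005534.8, chr8:3150922-3279617, minus strand, 35 sites), was captured 49 times at B87 over 10 libraries where 27.2 were expected, an enrichment of 0.84, above expectation in 8 of 10 libraries. At B26 it had 192 captures against 136 expected (0.49, 11 of 11 libraries), at B118 43 against 26.6 (0.68), and at B53 85 against 98.3 (-0.21). Irs2, which encodes an adaptor of the same pathway, crosses the edge of the Col4a1-Cul4a window, had a single site inside it and is not described. Elavl1, which encodes the RNA-binding protein HuR (chr8:4284782-4325100, minus strand, 9 sites), had 21 captures against 7.12 at B87 (1.50), 0.73 at B26, 0.75 at B118 and -0.43 at B53. Its order of baits was like that of Insr, with B53 lowest and B87 highest.

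The other genes of that window with the highest averages over baits were Timm44, a mitochondrial import subunit, Arhgef18, Camsap3, which caps microtubule minus ends, Pnpla6, a lysophospholipase, and Lrrc8e, a subunit of volume-regulated anion channels. At B87 they had 1.60, 1.46, 1.38, 1.37 and 1.56. Map2k7, a kinase upstream of JNK, had 1.37 at B87 and -0.67 at B53. Of the Cd209 family of C-type lectins, Cd209b was at -1.46 at B26 and -0.93 at B87, and Cd209c at -0.48 and -0.34, both chosen after their values were seen. The B87 values rest on 1 capture against 2.36 expected for Cd209b and 3 against 3.93 for Cd209c. Of the 5 Cd209c sites, 2 were never captured. Cd209a and Cd209e, with 1 site each, were at 1.45 and 0.22 at B87, on 3 captures and 1. Shcbp1, next to the 2 most captured sites, had 7 captures against 16 at B87 (-1.13), above expectation in 0 of 10 libraries. At B87, 6 of the 54 genes with at least 3 sites were not above expectation.

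The paired basement membrane collagen genes of the Col4a1-Cul4a window were covered by many sites. Col4a1 (ENSMUSG00000031502.9, chr8:11198423-11312826, minus strand, 47 sites) had 93 captures at B87 against 42.2 expected (1.13, 8 of 10 libraries above), 0.46 at B118 and 103 against 149 at B53 (-0.53, 1 of 11 above). Col4a2, which shares its promoter region, had 1.37 at B87, 1.04 at B118 and -0.10 at B53. Lamp1, a lysosomal membrane protein, had 1.67 at B87 and 1.66 at B118, and Mcoln1, the lysosomal channel gene of the other window, had a single site. Among the clotting factor genes, F10 had 0.58 at B87 and Proz 0.88, while F7 contains no HindIII site.

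Cul4a, a ubiquitin ligase scaffold, had 38 captures against 15.0 at B87 (1.32) and -0.53 at B53, and Tfdp1, the E2F partner, had 1.36 and -0.78. Cdc16, a subunit of the anaphase-promoting complex, had 1.52 at B87 but 0.17 at B53. Among signalling genes, Rasa3, a Ras GTPase-activating protein (25 sites), had 72 captures against 23.6 at B87 (1.59) and 50 against 82.3 at B53 (-0.71). Gas6, a ligand of the TAM receptors, had 1.43 and -0.53, and Arhgef7, a Rac and Cdc42 exchange factor with 47 sites, 0.90 and -0.29. The genes with the highest averages over baits were 2410022L05Rik, Atp4b, a gastric proton pump subunit, Adprhl1, Lamp1, Grtp1 and 1700016D06Rik, with B87 values of 1.91, 1.80, 1.67, 1.67, 1.68 and 1.71. Several of these rest on 3 or 4 sites, as do Adprhl1, Atp4b and 2410022L05Rik with 3 each.

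**Figure D4:**
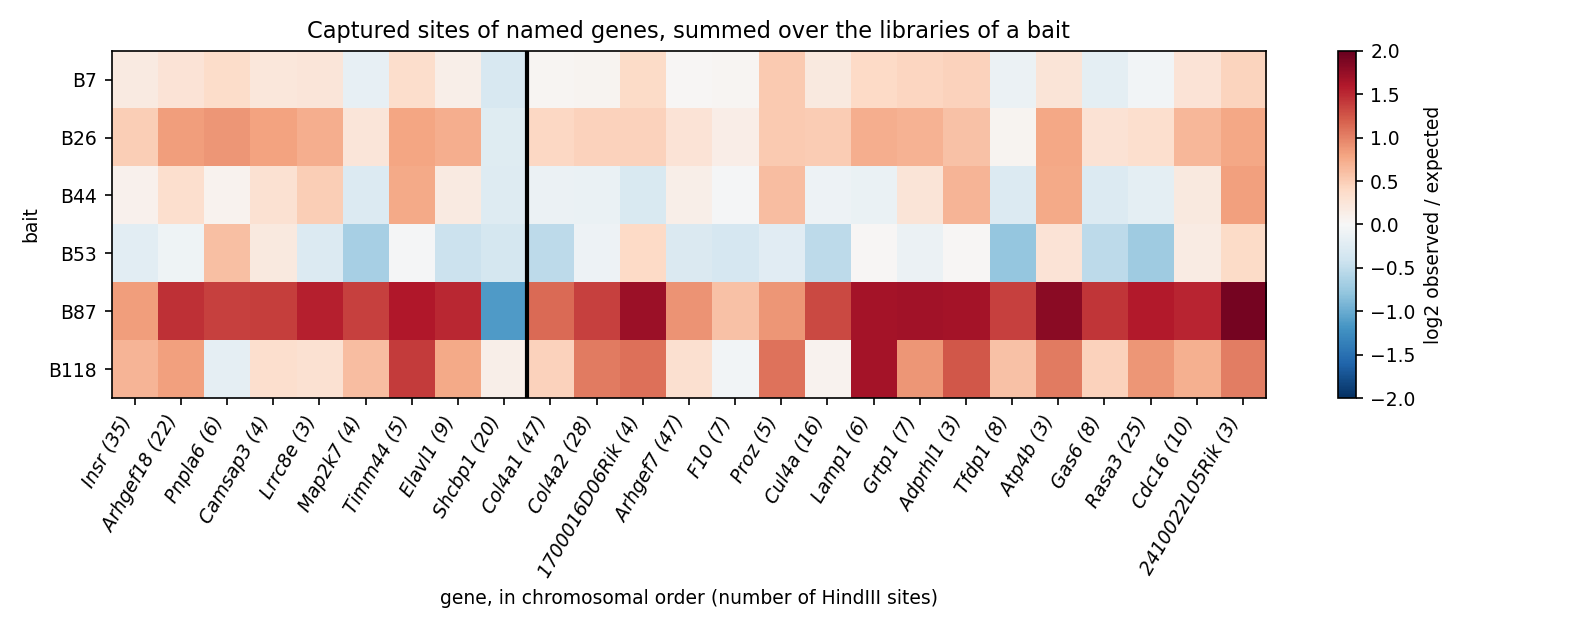
Enrichment of captured sites at each bait for genes of both windows with at least 3 sites, those of the function lists and the 6 per window with the highest average, pooled over the libraries of a bait (log2 of observed over distance-expected, no error bars). The Cd209 genes are not plotted. B87 values lie above those of B53 for all the genes plotted except Shcbp1, and reach 1.91 at 2410022L05Rik.

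Across the labelled stages the windows' mean enrichment did not shift one way over baits. From the first hour (30 min and 1 h) to 2 to 4 h, the Insr-Elavl1 window changed by -0.03 ± 0.36 (SD over 6 baits) and the Col4a1-Cul4a window by -0.01 ± 0.30 (adjusted p = 0.906 for both, exact permutation test, where 0.0312 is the smallest p that 6 baits can give). G0 minus 2 to 4 h was -0.25 ± 0.53 and -0.25 ± 0.52 (adjusted p = 0.312 for both, exact permutation test). The units of these stage tests are baits, which probably share cultures. Their p-values measure the spread among viewpoints and not among separate samples of a stage, so they cannot settle whether stages differ. The stage groups are also not separate. The library labelled 1 h replicate 2 shared captured sites with a technical replicate labelled 2 h, and some G0 libraries shared sites with these. In the Col4a1-Cul4a window the B87 libraries averaged 0.87 ± 0.17 in the first hour (n = 4), 1.06 ± 0.33 at 2 to 4 h (n = 3) and 0.17 ± 0.08 in G0 (n = 2). At B26 these means were 0.44 ± 0.33, 0.80 ± 0.45 and 0.11 ± 0.02, and at B7 -0.04 ± 0.12, -0.39 ± 0.41 and 0.09 ± 0.02. The values of the 6 baits in that window spanned 0.98 at 2 h, 2.00 at 3 h, 2.19 at 4 h and 0.57 in G0. In mitosis, where only B7, B26, B44 and B53 had libraries, they spanned 0.29, from -0.11 to 0.18. Over these same baits the values ran from -0.13 to 0.28 at 2 h and from -0.40 to 0.11 in G0. The mitotic span is therefore not comparable with the spans over 6 baits. The median number of captured sites was 19000 at 2 h, 2031 at 3 h, 1463 at 4 h and 12884 in G0. The widest spans were thus at the stages with the fewest captured sites, while G0 had fewer than 2 h and a smaller span; the part of depth in these spans was not tested.

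In edgeR's quasi-likelihood test of reads per 500-kb bin, 0% of the 1469 combinations were called between 2 to 4 h and the first hour, and 0% between G0 and 2 to 4 h, at an adjusted p of 0.05. At an unadjusted p under 0.05 there were 28 (1 of the 60 in the windows) and 461 (26 of 60), and the lowest adjusted p was 0.908 and 0.0641. DESeq2 called 0 and 365 (24.8%), the latter with 24 of the 60 window combinations, 11 higher and 13 lower in G0. All 10 bins of B7 were among the higher ones, with log2 changes of 1.47 to 4.18 in the Insr-Elavl1 window and 2.90 to 4.55 in the other. The lower ones came from B44, B53, B87 and B118, among them 4 bins of B53 and 5 of B87. These reads are scaled by library and not by distance from the bait. The groups include the libraries that share captured sites, and no fit left out all of them. Leaving out single libraries moved the edgeR count for G0 to 32 (without 30 min replicate 2), 147 (without 1 h replicate 1) or 231 (without 2 h), with 7, 12 and 11 window combinations among them.

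**Figure D5:**
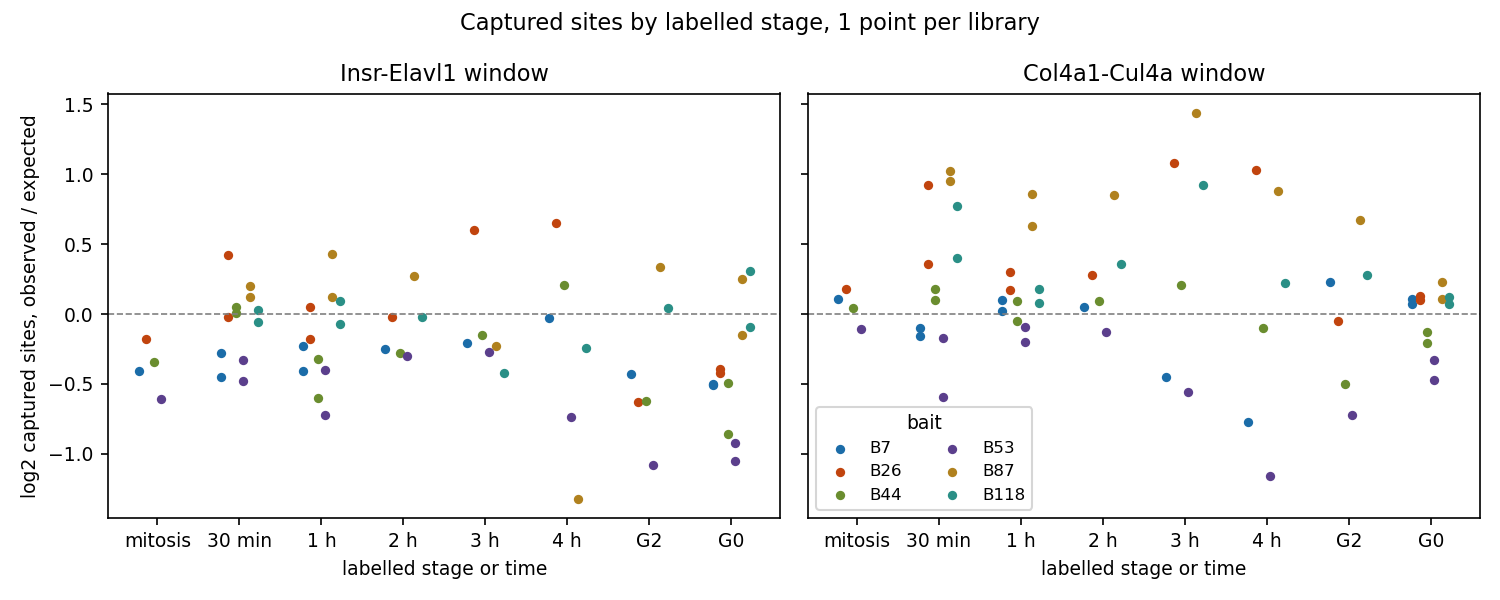
Enrichment of captured sites in both windows by labelled stage, with 1 point per library and colours for the 6 baits (log2 of observed over distance-expected). In the Col4a1-Cul4a window the stage means of the baits span 0.57 in G0 and 2.19 at 4 h, the stage with the fewest captured sites.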

How the data were processed

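The authors deposited raw read counts per HindIII site and library, aligned to mm9 with BWA 0.5.9 per the submitters' processing notes. All 39480 positions on chromosome 8 fell on mm9 HindIII sites. Of 109 columns, 70 were used; 39 (the baits of chromosomes 16 and 17, and those labelled 1.5 h) were not. From these counts, captured sites (at least 1 read) were divided by a lowess curve (span 0.5, log scale, 500-kb bins, at least 10 sites) fitted per library on distance beyond 2 Mb, and log2 ratios were taken with a pseudocount of 0.5. A linear-scale curve gave expectations near 0 in shallow libraries, so the log scale was chosen after seeing this. In simulated data the direction of changed windows was recovered, part of each change was absorbed by the curve, and 1 unchanged window was called. Tests were exact two-sided sign-flip permutations over libraries with Benjamini-Hochberg adjustment, called at 0.05. Bins were also tested between stages on read counts with edgeR 4.0.16 (quasi-likelihood, TMM) and DESeq2 1.42.0 in R 4.3.3. Genes came from GENCODE (protein-coding). Python 3.11.15, scipy 1.17.1 and statsmodels 0.14.6 were used. Alternatives covered reads, the expectation, thinning, site classes, left-out libraries and the replicate block. Same-numbered libraries were checked for shared deviations: 18 correlations ran from -0.69 to 0.46, and the numbers do not pair the samples. The windows and gene lists were chosen with earlier results of these data known. Described genes were Insr, Elavl1, the 6 per window with the highest mean over baits (3 or more sites), those at the most captured sites, and lists by function; 4 Col4a1-Cul4a sites tie at or above the rank of the third, and the first by number of baits and position were taken.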

Additional observations from a re-analysis of the deposited data

Results flagged for a closer look

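At B87 the library labelled 4 h replicate 1 had an enrichment of -1.32 in the Insr-Elavl1 window, far below the other 9 libraries, with 2 captured sites against 5.73 expected. It was the 1 value flagged in 28 groups checked for such a gap, and chance flags about 1 in 20. Some groups were libraries of a bait and others were stage differences over the baits. The full sets of libraries at B7, B26, B44 and B53 were too large for the check and were left out of it.

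In the Insr-Elavl1 window both G0 libraries lay below all those labelled 2 to 4 h at B7 (-0.34), B26 (-0.81), B44 (-0.60) and B53 (-0.55), and overlapped with them at B87 and B118. In the Col4a1-Cul4a window the G0 libraries all lay above those labelled 2 to 4 h at B7, by 0.48, and all below them at B26 (-0.68), B44 (-0.24), B87 (-0.89) and B118 (-0.41). The difference between baits was not tested, and the libraries labelled 3 h and 4 h captured the fewest sites. The libraries that share captured sites were included.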

How the results depend on the processing

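At the level of windows, 235 counts and stage results kept their side and direction and 18 moved; single values were unchanged in call in 1582 cases, lost it in 120, gained it in 61, reversed in 34 and moved in 15. The depth of the 3 h and 4 h libraries, the lack of other bins as far from B87 and B118 as the windows, and usable ends limit the values.

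With reads, these differences reversed in the Insr-Elavl1 window: B7 minus B44 0.44, B26 minus B87 -0.63 and B44 minus B53 -0.06; in the Col4a1-Cul4a window B7 minus B44 0.75 and B44 minus B53 -0.48; against the flanks the Insr-Elavl1 window at B44 0.07; and between windows B44 0.32. With capped reads B26 minus B87 was -0.63 and the difference between windows at B44 0.06.

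A straight line in log distance gave, in the Insr-Elavl1 window, 0.18 at B26 and -1.10 at B87, and in the Col4a1-Cul4a window -0.17 at B87 and -0.50 at B118. It reversed B7 minus B87 (0.64), B7 minus B118 (0.54), B44 minus B87 (0.77), B44 minus B118 (0.67), B53 minus B87 (0.37) and B53 minus B118 (0.26) in the first window, and B7 minus B87 (0.03), B7 minus B118 (0.36), B26 minus B87 (0.79), B44 minus B87 (0.17), B44 minus B118 (0.49) and B53 minus B118 (0.01) in the second. The cause was not tested.

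Thinned to equal captured sites within each bait (687 per library at B87 to 2987 at B118, so that depth still differed between baits), 11 differences between baits were called. The Insr-Elavl1 window was at -0.55 at B87 and the Col4a1-Cul4a window at 0.17 at B87, no longer called; B87 minus B118 was -0.45 and -0.15, and B26 minus B87 0.27 in the second window.

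Over sites captured at least once, 0 differences between windows were called, with B44 at 0.13 and B53 at 0.20, and the Insr-Elavl1 window minus flanks was 0.04 at B44. Over sites with 2 usable ends 1 was called, and B44 was 0.01. Per base pair or with a linear-scale curve 2 were called. Without the libraries that share sites, 12 differences between baits and 2 between windows were called, and without those labelled 3 h and 4 h B26 minus B87 was -0.35 in the Insr-Elavl1 window.

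With replicate number 1 only, as the replicate block, 12 differences between baits, 4 against the flanks and 2 between windows were called; with the number as a term edgeR called 0 and 0 bins, at 21 and 383 with unadjusted p under 0.05.

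Leaving out 1 library gave 7 to 7 calls against expectation, 18 to 23 between baits, 6 to 7 against the flanks and 4 to 6 between windows. For bins it gave 0 to 30 (30 without 2 h) and 0 to 231. For G0 against 2 to 4 h, DESeq2 called 365 bins, read totals as library sizes 43, captured sites 219 and 1-Mb bins 162 of 744.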
